A study of Mus musculus with 12 samples.

Results

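The 43 genes described here encode the enzymes of the lysosome, the activator and carrier proteins that work beside them, and proteins of the lysosomal membrane other than the proton pump. They were taken by symbol from the 41079 genes of a deposited table of counts, and 43 of 43 were present and passed the filter on low counts, among 20771 genes tested. The RNA came from 12 whole mouse embryos collected at 10.0 to 11.0 days after fertilization, from timed matings between Mfsd12 heterozygotes. There were 4 Mfsd12 knockout, 4 Mfsd12 heterozygous and 4 wild-type embryos, and each library is 1 embryo. Strain, the construction of the allele and the age of each embryo are not given in the sources used here. Embryos were numbered within a genotype in the order of deposition.

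A lysosome breaks down material that reaches it by endocytosis or autophagy, and its soluble hydrolases work at acid pH. Most of them are marked with mannose 6-phosphate in the Golgi apparatus and are sorted by receptors that bind this tag. The cysteine cathepsins carry a cysteine thiol in the active site and need it in the reduced state, and Mfsd12 encodes a membrane protein needed for cysteine import into lysosomes and melanosomes. Many lysosomal genes carry in their promoters a CACGTG core, part of the element called CLEAR, which is bound by the transcription factors TFEB and TFE3.

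The promoters of these genes were searched for this core. Promoter windows of 300 bases (250 before and 50 after the annotated start, RefSeq, GRCm38.p6) were found for 38 of the 43 genes, and 14 of the 38 (36.8%) held CACGTG, against 10.4% of 14892 tested genes with a window. The longer TCACGTGA was present in 5 of 38 (13.2%, against 1.73%). Each motif reads the same on both strands, the longer contains the shorter, and a match is a run of letters and not a shown binding site. The 14 genes were the proteases Ctsf, Ctsl, Ctsa, Ctsd and Lgmn, the glycosidases Gaa, Gla, Glb1 and Naglu, the sulfatases Arsa and Sgsh, and the membrane proteins Lamp1, Mcoln1 and Cln3. The 5 genes with the longer motif are shown because they carry the fullest match to the element, with 10 bases on each side and the match in capitals. In Cln3 the capitals run 1 base further on each side, and there too the run reads the same on both strands.
Gla: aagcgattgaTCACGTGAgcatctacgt
Cln3: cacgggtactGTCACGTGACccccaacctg
Mcoln1: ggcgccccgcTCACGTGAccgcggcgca
Ctsa: gagcaaactgTCACGTGAtgcagatgct
Ctsd: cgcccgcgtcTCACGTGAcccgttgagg
These lie on GRCm38.p6 at chrX:134601216-134601243 (minus strand) for Gla, chr7:126583340-126583369 (minus) for Cln3, chr8:3500463-3500490 (plus) for Mcoln1, chr2:164833750-164833777 (plus) for Ctsa and chr7:142387909-142387936 (minus) for Ctsd. The centres of these motifs lie at -224, -118, -42, -9 and -95 bases from the start, in the same order. The promoter of Lamp1, the most abundant membrane protein of the set, is shown whole because it held 4 copies of CACGTG, in capitals, at chr8:13158911-13159210 on the plus strand.
Lamp1: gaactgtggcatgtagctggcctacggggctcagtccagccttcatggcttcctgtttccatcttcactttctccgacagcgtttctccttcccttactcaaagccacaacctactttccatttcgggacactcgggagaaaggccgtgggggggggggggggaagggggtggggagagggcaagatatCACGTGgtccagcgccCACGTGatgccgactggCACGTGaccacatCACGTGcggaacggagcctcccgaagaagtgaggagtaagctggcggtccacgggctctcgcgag
None of the 3 activator and carrier genes and none of the 4 matched genes of the lipid class held the core in this window. Between the genes with and without the core, the estimated difference of knockout from wild-type embryos was positive for 7 of 14 and 10 of 24, with medians of 0.01 and -0.06 on the log2 scale. For knockout against heterozygous embryos it was positive for 4 of 14 and 5 of 24 (medians -0.16 and -0.16). For heterozygous against wild-type embryos it was positive for 14 of 14 with the core (median 0.13) and 14 of 24 without it (median 0.03), a difference that was not tested. Over all 43 genes that comparison had 32 positive, and 20 without the library labelled heterozygous 2, described below. In that library 13 of 14 genes with the core lay above the mean of the other heterozygous embryos, and 18 of 24 without it. The medians of these log2 differences were 0.49 and 0.48. Of the factors that bind the core, Tfe3 had 25.4 to 37.5 CPM (counts scaled to a common library total) over the 12 embryos and Tfeb 1.02 to 3.62 CPM.

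All 43 genes were expressed in the embryos, and their levels spanned a wide range when compared per length. Levels between genes are given as RPKM, in which counts are scaled to library total and exon length. Averaged over the 12 embryos, the aspartic protease Ctsd had 115 RPKM, the membrane glycoprotein Lamp1 108 RPKM, and Psap, the precursor of the saposins that help enzymes reach their lipids, 100.7 RPKM. Ctsl, an endopeptidase, led the cysteine cathepsins with 50.4 RPKM, and Ctso was the lowest of all 43 with 1.40 RPKM. Hexa, the alpha subunit of beta-hexosaminidase, led the glycosidases with 20.998 RPKM. Acid ceramidase, Asah1, led the lipid hydrolases with 20.02 RPKM, and arylsulfatase A, Arsa, the sulfatases with 4.65 RPKM. Summed over the class, the 5 sulfatases stood at 12.2 to 20.1 RPKM in the 12 embryos, the lowest of the 7 classes. The 43 genes together took 0.2198 to 0.3586% of an embryo's counts.

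**Figure D1:**
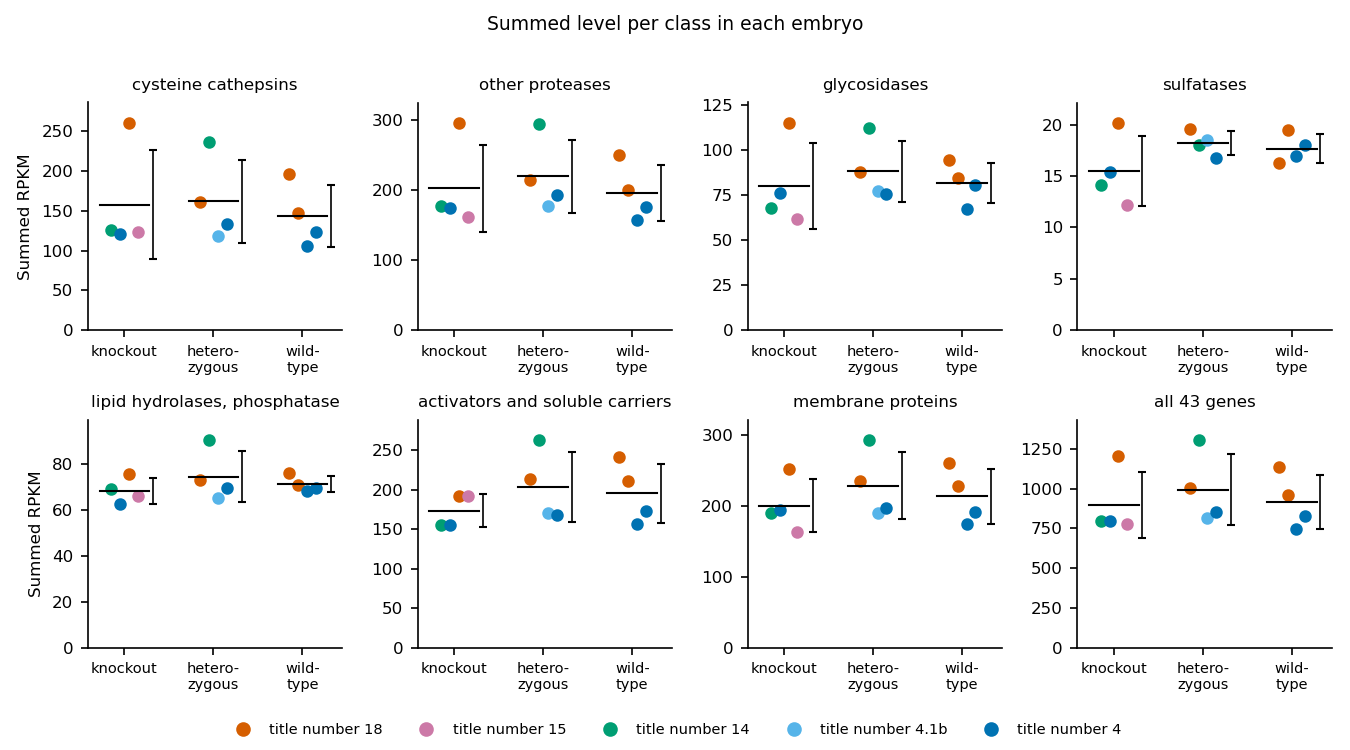
Summed level of each class of lysosomal genes, and of all 43, in RPKM per embryo, by genotype; points are embryos coloured by the first number in their title, lines are means and bars are SD (n = 4). Knockout 3 and the library labelled heterozygous 2 had the highest sums of all 43 genes, 1210 and 1305 RPKM, against 747 to 1134 RPKM in the other embryos.

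Total counts lay between 53133084 and 67977990 per embryo, and every pair of libraries differed by more than sampling noise. Mfsd12 had 3.22, 2.78, 3.57 and 2.31 CPM in knockout embryos, 8.84, 2.58, 6.03 and 5.91 CPM in heterozygous embryos, and 12.7, 16.2, 9.48 and 9.38 CPM in wild-type embryos. The library labelled heterozygous 2, at 2.58 CPM, lay inside the knockout range and went against its label. Knockout and wild-type embryos did not overlap, at a knockout over wild-type log2 ratio of -2.01 ± 0.33 (SE, edgeR p = 3.71e-05, adjusted p = 0.385 over all genes, exact two-sided permutation p = 0.0286, the smallest that 4 against 4 can give). Red blood cell and neuronal markers had counts in all 12 libraries. The title of each embryo opens with a number (4, 14, 15, 18 or 4.1b) whose meaning is not stated, and only 18 and 4 occur with all 3 genotypes.

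No lysosomal gene passed the test in knockout against wild-type embryos. The edgeR quasi-likelihood test with Benjamini-Hochberg adjustment called 0 of the 43, as it called 0% of all genes, and DESeq2 also called 0 of the 43. At an unadjusted p under 0.05 the edgeR count was 0 of 43, against 8.33% of all genes tested (4.25% higher and 4.08% lower). That count depended on single libraries. Without knockout 3 it was 0 higher and 4 lower (Arsa, Ctsb, Ctso and Grn), against 5.97% and 7.57% of all genes. With the library labelled heterozygous 2 also left out it was 0 higher and 6 lower, against 7.4% and 8.94%. Without the library labelled heterozygous 2 alone it was 2 higher (Ctsl and Tpp1) and 0 lower, against 5.36% and 4.74%, and without wild-type 3 it was 1 lower (Fuca1), against 5.91%. None of these passed the adjusted threshold. The estimate was positive for 21 genes and negative for 22 (51.3% of all genes were positive), and the median log2 fold change was -0.02, against 0.01 over all genes. No gene of the set separated the 4 knockout from the 4 wild-type embryos, where 1.6% of all genes lay wholly higher and 1.82% wholly lower.

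Among the cysteine cathepsins, 4 of 7 estimates were positive and 3 negative. Ctso, a cathepsin of little known function on chromosome 3 (GRCm39, 81839908 to 81864032, plus strand), had the smallest p of the set. It had 3.86, 2.60, 5.50 and 3.28 CPM in knockout embryos, 6.62, 6.27, 3.76 and 4.42 CPM in heterozygous embryos, and 7.20, 6.11, 4.76 and 4.06 CPM in wild-type embryos. Only knockout 3 lay among the wild-type values, and the log2 fold change of knockout over wild-type was -0.54 ± 0.29 (SE, edgeR adjusted p = 0.627). Ctsl had 185, 142, 301 and 194 CPM in knockout embryos, 149, 355, 129 and 142 CPM in heterozygous embryos, and 186, 123, 115 and 145 CPM in wild-type embryos. Its log2 fold change of knockout over wild-type was 0.53 ± 0.32 (SE, edgeR adjusted p = 0.663), and without knockout 3 it was 0.31. Ctsh, an aminopeptidase, had the widest interval of the set, at 0.79 with a 95% range of -0.60 to 2.19, and 1 of the 4 knockout embryos held 8.97 times the mean of the others.

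Among the other proteases, Tpp1, the tripeptidyl peptidase whose loss causes a neuronal storage disease, had 43.3, 40.8, 60.2 and 52.7 CPM in knockout embryos, 29.4, 78.0, 37.3 and 39.3 CPM in heterozygous embryos, and 27.0, 27.97, 45.5 and 41.1 CPM in wild-type embryos. The knockout and wild-type groups overlapped, and the log2 fold change was 0.48 ± 0.28 (SE, edgeR adjusted p = 0.655). Ctsd, the most abundant of the class, stood at -0.06 with a 95% interval of -0.50 to 0.38. The 11 glycosidases, which trim glycans from glycolipids, glycoproteins and glycosaminoglycans, ran from -0.44 for Fuca1, the fucosidase, to 0.38 for Manba, the beta-mannosidase, with a median of 0.08. The 5 sulfatases ran from -0.33 to 0.11 with a median of -0.25, and Arsa had the lowest estimate of them (95% interval -0.75 to 0.09). The 5 lipid hydrolases and phosphatase ran from -0.27 for Smpd1, acid sphingomyelinase, to 0.07 for Acp2, lysosomal acid phosphatase. All 3 activators and carriers, Psap, the cholesterol carrier Npc2 and progranulin, Grn, had negative estimates, from -0.34 to -0.03. The 7 membrane proteins ran from -0.29 for Cd63, a tetraspanin, to 0.17 for Npc1, the cholesterol exporter. Lamp1 stood at -0.04 with a 95% interval of -0.37 to 0.29, and its close relative Lamp2 at 0.05 with an interval of -0.31 to 0.41. The 95% intervals use the normal quantile and are narrower than the edgeR test implies. Intervals of this width do not show that levels were equal.

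**Figure D2:**
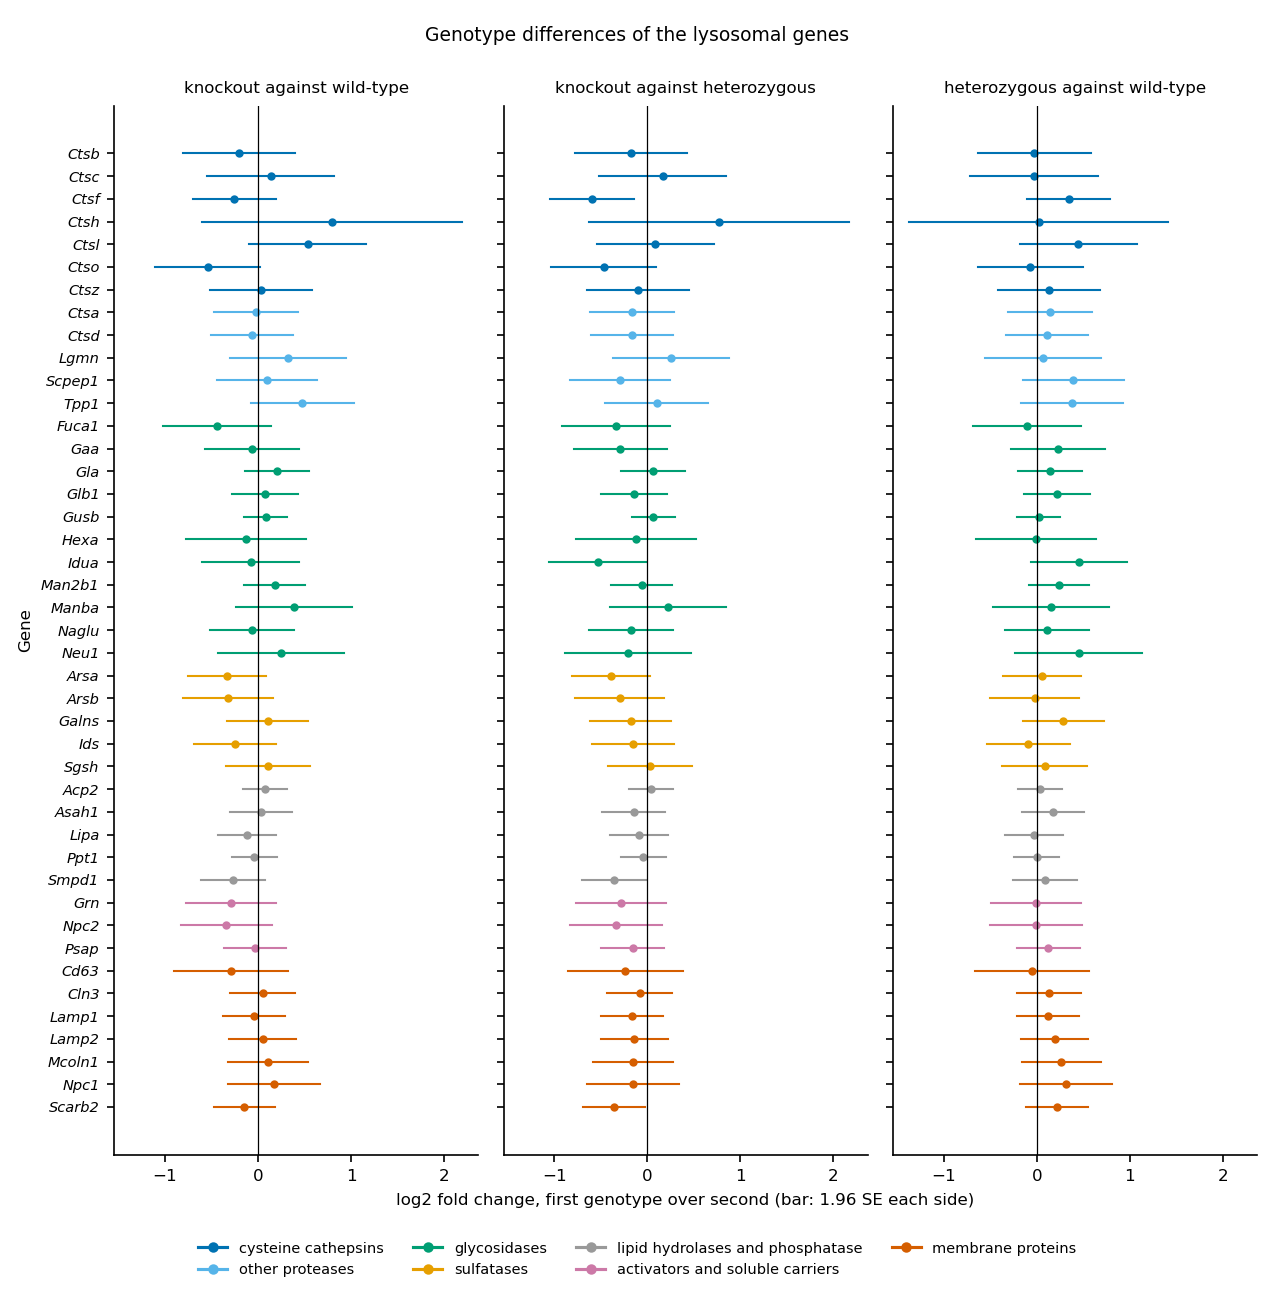
Log2 fold change of each of the 43 genes, with bars for the 95% interval from its SE, for knockout against wild-type, knockout against heterozygous and heterozygous against wild-type embryos (n = 4 each), coloured by class. Most bars cross 0, the widest belongs to Ctsh in each panel, and Ctsf lies lowest of the middle panel at -0.60. The bars of Scarb2, Smpd1 and Idua leave out 0 in the middle panel, although their unadjusted edgeR p-values were 0.0533, 0.0614 and 0.0657.

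The balance of these estimates depended on single embryos. Without knockout 3 the median log2 fold change of knockout over wild-type was -0.16 with 9 of 43 positive, and without knockout 4 it was 0.07 with 26 of 43 positive. Within title number 18, knockout 3 minus the mean of 2 wild-type embryos gave a median log2 difference of 0.32 with 35 of 43 positive. Within title number 4, knockout 2 minus the mean of 2 wild-type embryos gave -0.02 with 20 of 43 positive. Each of these differences rests on 1 knockout embryo, so they cannot show whether a direction holds across title numbers. Other markers moved beside the lysosomal genes in this comparison, with 0 of them called, where 0% of all genes were called. At an unadjusted p under 0.05 in edgeR, 9 ATF4 targets and 9 yolk sac endoderm markers were higher, against 4.25% of all genes. At that p 9 erythroid, 6 neuronal, 3 macrophage and 3 melanoblast markers were lower, against 4.08%, and 0 low-oxygen markers passed it. The marker lists were chosen with earlier results of these data known, so marker counts here and below are descriptions. All 10 ATF4 targets had positive estimates, and their summed level was 449 to 2110 CPM in knockout embryos, against 299 to 397 CPM in wild-type embryos. All 10 erythroid markers had negative estimates, with sums of 4620 to 16784 CPM in knockout embryos and 15771 to 73974 CPM in wild-type embryos, as had all 9 neuronal markers (143 to 665 CPM, against 617 to 1015 CPM). Of 16 macrophage markers 15 were negative (14.7 to 133 CPM, against 80.7 to 239 CPM), and of 7 melanoblast markers 6 (19.6 to 27.0 CPM, against 25.7 to 36.7 CPM). All 11 yolk sac endoderm markers were positive (84.6 to 4235 CPM, against 64.7 to 161 CPM), and 10 of 11 low-oxygen markers (2191 to 5550 CPM, against 2608 to 3985 CPM). The yolk sac sum of 4235 CPM was knockout 3, and knockout 1, 2 and 4 (84.6 to 112 CPM) lay inside the wild-type range. The part of these cell types and responses in the lysosomal values was not tested, and in whole embryos fewer cells of a type cannot be told apart from less RNA per cell.

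Knockout against heterozygous embryos gave lower estimates for most lysosomal genes, with 33 of 43 negative (49.9% of all genes were positive) and a median log2 fold change of -0.16, against 0.00 over all genes. The edgeR test called 0 of 43 and 0% of all genes, and DESeq2 also called 0 of the 43. At an unadjusted p under 0.05 there were 0 of 43 higher and 1 lower, against 7.4% of all genes (3.61% higher and 3.79% lower). Leaving out single libraries changed this count. Without knockout 3 it was 0 higher and 7 lower, against 5.16% and 6.38% of all genes, and without heterozygous 4 it was 4 lower (Arsa, Ctsf, Idua and Smpd1), against 3.29%. Without the library labelled heterozygous 2 it was 2 higher (Ctsl and Tpp1) and 0 lower, against 4.58% and 3.96%. With that library and knockout 3 left out together it was 0 higher and 2 lower (Arsb and Ids), against 6.53% and 7.39%. It was 0 without knockout 4, against 1.67% of all genes higher and 1.95% lower. It was 2 lower without heterozygous 1 (Idua and Scarb2), against 2.71%, and 2 lower without heterozygous 3 (Ctsf and Idua), against 4.03%. Without wild-type 1 it was 3 lower (Ctsf, Scarb2 and Smpd1), against 4.27%. The gene in the fit to all 12 embryos was Ctsf, a cysteine cathepsin on chromosome 19 (GRCm39, 4905153 to 4910946, plus strand). Ctsf had 8.19, 10.2, 9.48 and 6.39 CPM in knockout embryos, 14.3, 16.1, 11.4 and 10.0 CPM in heterozygous embryos, and 11.4, 12.9, 7.49 and 8.98 CPM in wild-type embryos. Knockout 2 lay just above heterozygous 4 and the groups overlapped by this pair alone. The log2 fold change of knockout over heterozygous was -0.60 ± 0.23 (SE, edgeR adjusted p = 0.643).

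The next smallest p-values of knockout against heterozygous belonged to Scarb2, the membrane receptor that carries glucocerebrosidase to lysosomes, and to Smpd1. Scarb2 had 66.6, 59.7, 71.5 and 46.0 CPM in knockout embryos, against 69.5, 94.4, 74.5 and 74.4 CPM in heterozygous embryos, a log2 fold change of -0.36 ± 0.17 (SE, edgeR adjusted p = 0.68). Smpd1 had 29.1, 28.1, 31.2 and 25.4 CPM in knockout embryos, against 35.4, 47.6, 33.3 and 29.8 CPM in heterozygous embryos, with a log2 fold change of -0.36 ± 0.18 (SE, edgeR adjusted p = 0.688). The 7 membrane proteins and the 3 activators and carriers all had negative estimates. The lean to lower values moved with both libraries that stood apart. Without the library labelled heterozygous 2 the median was -0.01 with 21 of 43 positive, and without knockout 3 it was -0.33 with 4 of 43 positive. With both left out it was -0.20 with 9 of 43 positive, close to the value over all 12 embryos. Other markers moved in this comparison too, with 0 of them called. All 9 neuronal markers had negative estimates, 9 of them at an unadjusted p under 0.05, against 3.79% of all genes lower. Their sums were 143 to 665 CPM in knockout embryos and 554 to 1079 CPM in heterozygous embryos. All 10 erythroid markers were negative, 8 of them at that p (4620 to 16784 CPM, against 11437 to 46075 CPM), and all 11 low-oxygen markers, 3 of them at that p (2191 to 5550 CPM, against 2699 to 13231 CPM). The low-oxygen sum of 13231 CPM was the library labelled heterozygous 2. Heterozygous 1, 3 and 4 had 2699 to 3506 CPM, inside the knockout range. Of 16 macrophage markers 15 were negative (14.7 to 133 CPM, against 71.2 to 183 CPM), and of 7 melanoblast markers 4 (19.6 to 27.0 CPM, against 18.8 to 35.3 CPM). All 11 yolk sac endoderm markers were positive (84.6 to 4235 CPM, against 96.3 to 668 CPM), and 9 of 10 ATF4 targets (449 to 2110 CPM, against 301 to 1951 CPM). Knockout 3 held the yolk sac sum of 4235 CPM, against 84.6 to 112 CPM in knockout 1, 2 and 4. The library labelled heterozygous 2 held the ATF4 sum of 1951 CPM, against 301 to 407 CPM in heterozygous 1, 3 and 4. The part of these markers in the lysosomal values was not tested. No gene of the set separated the groups, against 1.51% of all genes wholly higher and 1.93% wholly lower in knockout embryos.

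Heterozygous against wild-type embryos gave the opposite lean, with 32 of 43 positive (48.4% of all genes) and a median log2 fold change of 0.12, against -0.01 over all genes. These comparisons share embryos, so the 2 leans are not independent of each other. In both, genotype also went largely with sex as read from Xist and Ddx3y, and the 2 cannot be fully told apart. The edgeR test called 0 of 43 and 0% of all genes, DESeq2 called 0 of the 43, and the count at an unadjusted p under 0.05 was 0 of 43, against 1.01% of all genes (0.732% higher and 0.274% lower); without heterozygous 3 it was 1 higher, Idua, against 1.36%. No gene of the set separated the groups, against 0.433% of all genes wholly higher and 0.443% wholly lower. The smallest p belonged to Idua, which removes iduronic acid from heparan and dermatan sulfate. Idua had 6.72, 6.65, 7.24 and 6.59 CPM in knockout embryos, 7.67, 17.2, 6.87 and 7.59 CPM in heterozygous embryos, and 7.16, 7.11, 7.52 and 6.91 CPM in wild-type embryos. It stood at 6.59 to 7.67 CPM in every embryo except the library labelled heterozygous 2, and the log2 fold change of 0.45 ± 0.27 (SE, edgeR adjusted p = 1) was 0.04 without that library. Man2b1, the lysosomal alpha-mannosidase, had a log2 fold change of 0.24 ± 0.17 (SE, edgeR adjusted p = 1), and Ctsf 0.34 ± 0.23 (SE, edgeR adjusted p = 1). Without the library labelled heterozygous 2 the median of the 43 was -0.01 with 20 positive. Of the marker lists, with 0 genes called, all 11 low-oxygen markers had positive estimates, 5 of them at an unadjusted p under 0.05, against 0.732% of all genes. Their sums were 2699 to 13231 CPM in heterozygous embryos and 2608 to 3985 CPM in wild-type embryos. The top of that range was the library labelled heterozygous 2, and heterozygous 1, 3 and 4 (2699 to 3506 CPM) lay inside the wild-type range. All 10 ATF4 targets were positive (301 to 1951 CPM, against 299 to 397 CPM). The top there was again the library labelled heterozygous 2, with 301 to 407 CPM in heterozygous 1, 3 and 4. Positive estimates were also found for 10 of 11 yolk sac endoderm markers (96.3 to 668 CPM, against 64.7 to 161 CPM) and 6 of 9 neuronal markers (554 to 1079 CPM, against 617 to 1015 CPM). Negative estimates were found for 14 of 16 macrophage markers (71.2 to 183 CPM, against 80.7 to 239 CPM), 9 of 10 erythroid markers (11437 to 46075 CPM, against 15771 to 73974 CPM) and 4 of 7 melanoblast markers (18.8 to 35.3 CPM, against 25.7 to 36.7 CPM). Their part in the lysosomal values was not tested.

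**Figure D3:**
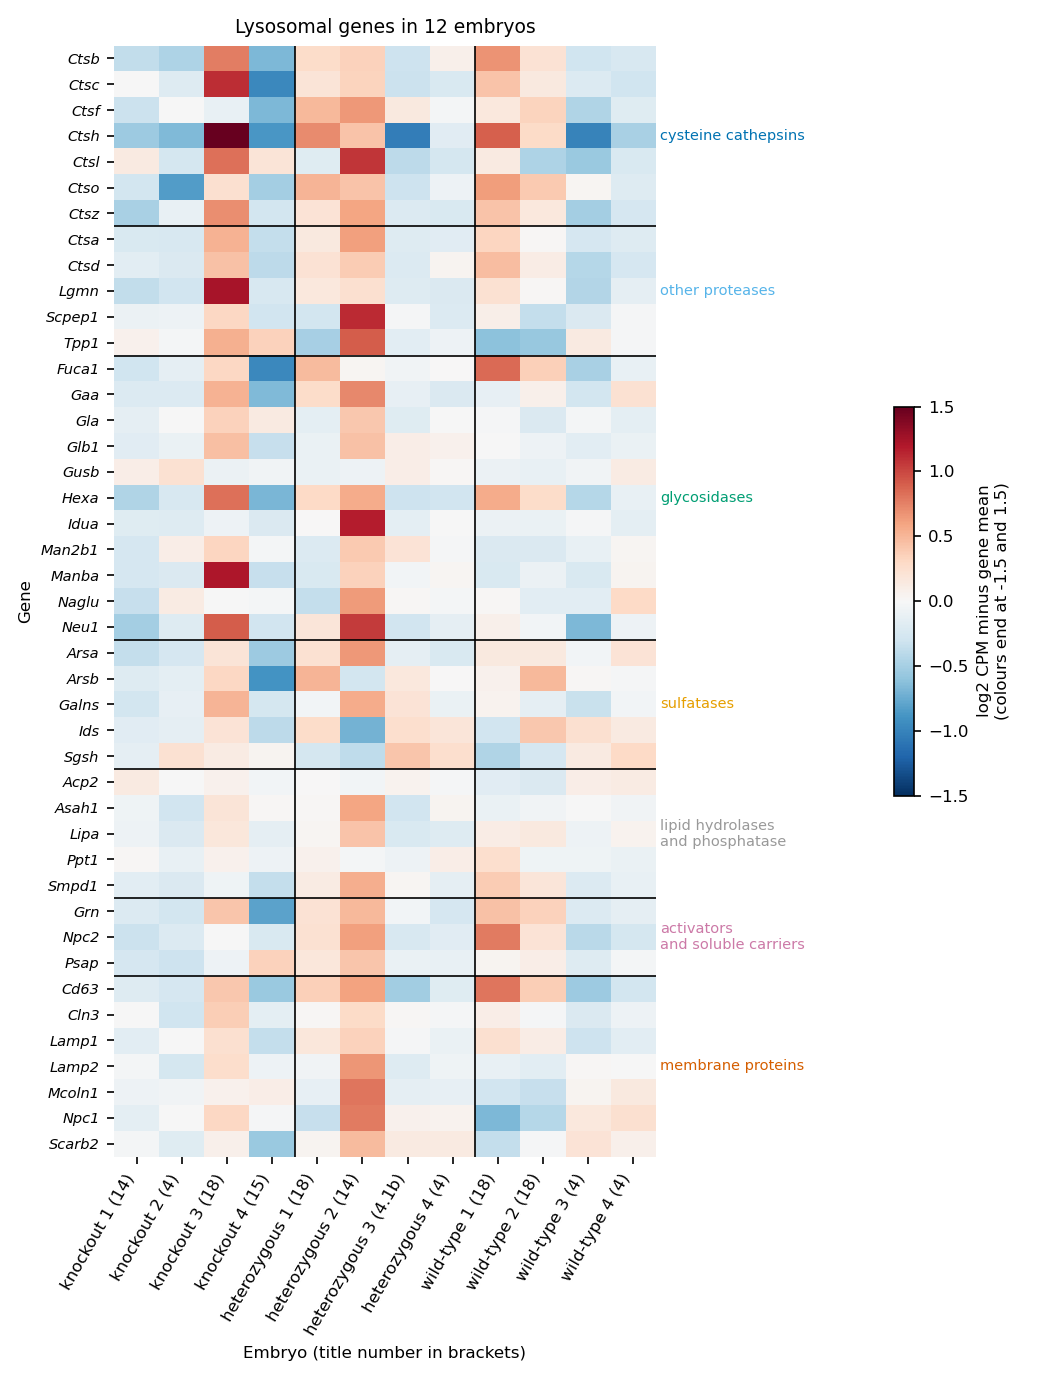
Log2 CPM of the 43 genes in the 12 embryos, each gene minus its own mean, by class and with the first number of each title in brackets; colours end at -1.5 and 1.5. The columns of knockout 3 and of the library labelled heterozygous 2 are the reddest and that of knockout 4 the bluest, and Ppt1, Acp2 and Gusb stay near 0 throughout.

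Knockout 3 and the library labelled heterozygous 2 stood apart in lysosomal genes, with different genes in the lead. The library labelled heterozygous 2 held the highest level of 12 embryos for 23 of 43 genes (53.5%), where it held the highest for 17.9% of all genes tested. Knockout 3 held the highest for 9 of 43 (20.9%, against 5.83%). These 2 libraries were singled out after their values were seen, so the counts are descriptions.

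In the library labelled heterozygous 2, 36 of 43 genes lay above the mean of the other heterozygous embryos, with a median log2 difference of 0.52 (all genes -0.00), and 34 lay above every other heterozygous embryo, against 34% of all genes. Ctsl had 355 CPM there, while its values were 129 to 149 CPM in heterozygous 1, 3 and 4, a 2.54-fold difference. Scpep1, a serine carboxypeptidase, had 133 CPM against 50.4 to 60.5 CPM, and Tpp1 78.0 CPM against 29.4 to 39.3 CPM. Idua was 2.34-fold higher than in the mean of the others. All 7 membrane proteins were higher, with a median log2 difference of 0.72. The calcium channel Mcoln1 had 34.3 CPM there, against 17.9 to 18.04 CPM in those 3 embryos, and Lamp2 202 CPM, against 112 to 124 CPM. The sulfatases were split, with 3 of 5 lower and a median of -0.50. Ids, the iduronate sulfatase encoded on the X chromosome, had 15.5 CPM against 28.8 to 30.6 CPM, Arsb 12.95 CPM against 15.7 to 22.4 CPM, and Sgsh 6.17 CPM against 6.69 to 10.8 CPM. In the same library the 11 low-oxygen markers summed to 13231 CPM, against 2699 to 3506 CPM in the 3 others, and the 10 ATF4 targets to 1951 CPM, against 301 to 407 CPM. Neuronal markers were lower there (554 CPM, against 889 to 1079 CPM), as were yolk sac endoderm markers (96.3 CPM, against 132 to 668 CPM) and melanoblast markers (18.8 CPM, against 34.9 to 35.3 CPM). Their part in the lysosomal values was not tested.

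In knockout 3, 41 of 43 genes lay above the mean of the other knockout embryos, with a median log2 difference of 0.46 (all genes 0.02), and 36 lay above every other knockout embryo, against 29.8% of all genes. The cysteine cathepsins led, with a median of 0.99 and 7 of 7 higher. Ctsh had 35.7 CPM there, while knockout 1, 2 and 4 had 3.49 to 4.40 CPM, an 8.97-fold difference. Lgmn, the asparaginyl endopeptidase legumain, had 118 CPM against 38.6 to 42.4 CPM, and Manba 18.7 CPM against 6.35 to 6.93 CPM. Ctsc, the dipeptidyl peptidase that activates proteases of immune cells, had 39.8 CPM against 9.44 to 18.3 CPM, and Ctsb, an abundant endopeptidase, 353 CPM against 130 to 161 CPM. The membrane proteins differed less, with a median of 0.39, and the lipid class least, with a median of 0.18. The 11 yolk sac endoderm markers summed to 4235 CPM in knockout 3, against 84.6 to 112 CPM in the 3 others, with Amn, Apoa4 and S100g at 0 in some library of the series. Knockout 3 also had the highest sums of the knockout embryos for macrophage markers (133 CPM, against 14.7 to 82.2 CPM), neuronal markers (665 CPM, against 143 to 401 CPM) and erythroid markers (16784 CPM, against 4620 to 11868 CPM). Its ATF4 targets were the lowest of them (449 CPM, against 706 to 2110 CPM). Their part in the lysosomal values was not tested.

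**Figure D4:**
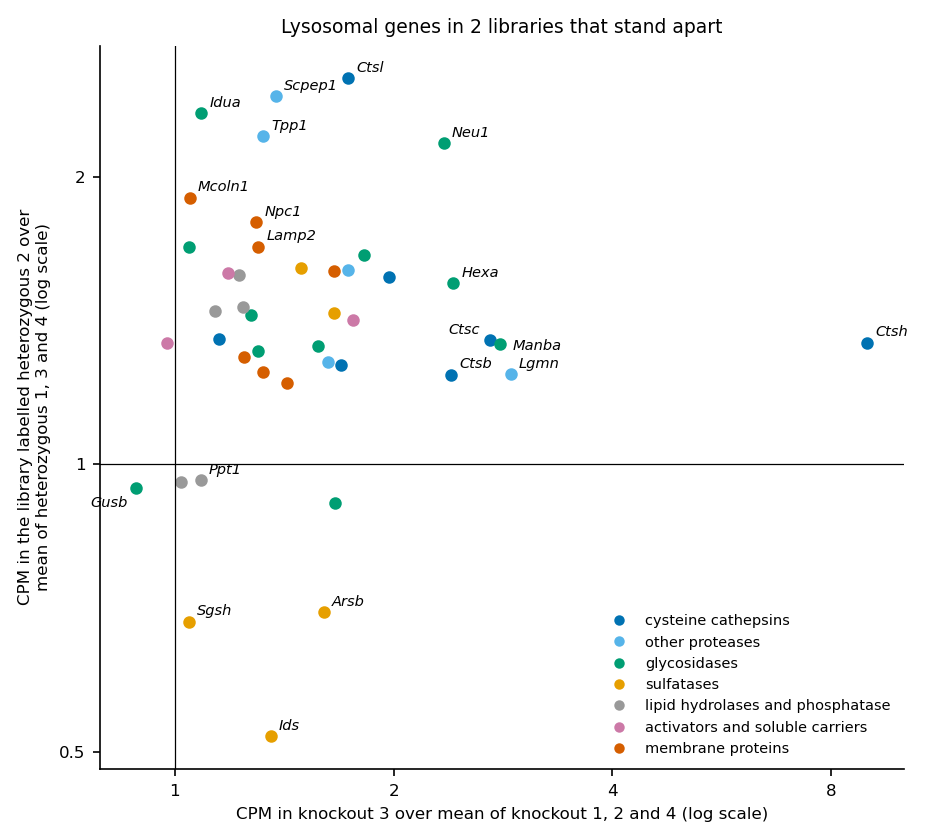
Each point is 1 of the 43 genes, coloured by class; the x axis gives its CPM in knockout 3 over the mean of the other knockout embryos and the y axis its CPM in the library labelled heterozygous 2 over the mean of the other heterozygous embryos, both on log scales. Ctsh lies far to the right at 8.97-fold, Ctsl at the top at 2.54-fold, and Ids at the bottom at 0.519-fold.

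Knockout 4 stood at the other end. It held the lowest level of 12 embryos for 17 of 43 genes, where it held the lowest for 16.8% of all genes tested, and 22 of 43 lay below every other knockout embryo, against 30.7% of all genes. Ctsc had 9.44 CPM there, against 16.2 to 39.8 CPM in knockout 1, 2 and 3, and Fuca1 11.9 CPM against 18.8 to 28.7 CPM. Psap went the other way, with 350 CPM in knockout 4 and 223 to 262 CPM in the 3 others. The macrophage markers summed to 14.7 CPM in knockout 4, against 51.0 to 133 CPM in the 3 others, the neuronal markers to 143 CPM, against 366 to 665 CPM, and the low-oxygen markers to 5550 CPM, against 2191 to 4837 CPM. Their part was not tested.

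Lysosomal genes also varied with the first number in the titles. Embryos of title number 18 (knockout 3, heterozygous 1 and wild-type 1 and 2) had higher estimates than those of title number 4 (knockout 2, heterozygous 4 and wild-type 3 and 4) for 34 of 43 genes, against 52.4% of all genes. The fit held genotype as a factor, and the median log2 fold change was 0.27, against 0.03 over all genes. The edgeR test called 2 of 43 higher, Cd63 and Ctsh, and 0 lower, against 4.64% of all genes (2.98% higher and 1.67% lower). A count of 2 is thus close to the share of all genes. At an unadjusted p under 0.05 there were 15 of 43 higher and 1 lower, against 13.9% and 11.7% of all genes, and without knockout 3 there were 11 higher and 3 lower (Npc1, Sgsh and Tpp1), against 15.3% and 13.5%. For 17 of 43 genes (39.5%) every embryo of number 18 lay above every embryo of number 4, and for 2 below, against 10.1% of all genes in each direction. Within each of the 3 genotypes the mean of number 18 was above that of number 4 for 24 of 43 genes (55.8%, against 22.6% of all genes), and below it for 3 (6.98%, against 20.5%).

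Cd63, a tetraspanin of lysosomes and related organelles on chromosome 10 (GRCm39, 128731577 to 128748691, plus strand), had 97.8, 94.6, 129 and 95.6 CPM in embryos of number 18, against 62.2, 65.5, 50.5 and 61.1 CPM in embryos of number 4. The groups did not overlap, and the log2 fold change was 0.80 ± 0.18 (SE, edgeR adjusted p = 0.0369). Ctsh, on chromosome 9 (89936320 to 89958148, plus strand), had 35.7, 10.5, 11.9 and 7.81 CPM in embryos of number 18, against 4.06, 5.69, 3.22 and 4.57 CPM in embryos of number 4. Every embryo of number 18 was above every embryo of number 4, and the log2 fold change was 1.76 ± 0.42 (SE, edgeR adjusted p = 0.0434). Without knockout 3 it was 1.14, and Ctsh was called higher and Npc1 lower, while Cd63 was not called (log2 fold change 0.78, edgeR adjusted p = 0.0523). Cd63 was not called without heterozygous 1 either, at a larger log2 fold change of 0.93 (edgeR adjusted p = 0.0571). Ctsh lost its call without knockout 2, with library totals alone and with no count filter, at log2 fold changes of 1.46, 1.72 and 1.75 (edgeR adjusted p = 0.0649, 0.0565 and 0.112). Without heterozygous 4, or without any 1 of the 4 wild-type embryos, no gene of the set was called. With a stage index, a score of later-stage minus earlier-stage genes, as a covariate, neither was called, although the log2 fold changes were 1.16 for Cd63 and 1.79 for Ctsh (edgeR adjusted p = 0.0991 and 0.177). Leaving out 1 embryo gave log2 fold changes of 0.67 to 0.93 for Cd63 and 1.14 to 2.07 for Ctsh. Fuca1, next by p, had 28.7, 32.2, 41.8 and 29.6 CPM in embryos of number 18, against 21.04, 23.3, 16.5 and 21.4 CPM in embryos of number 4, with a log2 fold change of 0.69 ± 0.17 (SE, edgeR adjusted p = 0.0526).

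By class, all 7 cysteine cathepsins had higher estimates in number 18, with a median log2 fold change of 0.71, and 5 of them did not overlap between the numbers. Of all genes 10.1% lay wholly higher and 10.1% wholly lower, the share to set beside such counts in each class. Without knockout 3 all 7 stayed positive, with a median of 0.48, while the median of all 43 genes was 0.13 with 27 positive. Of the other proteases 4 of 5 were higher, and Ctsd had 293, 250, 297 and 233 CPM in number 18, against 185, 221, 160 and 180 CPM in number 4. Hexa, with 68.5, 47.5, 57.1 and 46.7 CPM against 32.7, 31.8, 28.7 and 35.8 CPM, was 1 of 3 glycosidases that lay wholly higher. All 3 activators and carriers had positive estimates, from 0.22 for Psap to 0.57 for Grn and Npc2. Of the sulfatases, Arsb lay wholly higher and Sgsh wholly lower, at 8.73, 6.69, 5.89 and 6.78 CPM against 9.45, 9.57, 8.80 and 9.87 CPM. The membrane proteins were mixed, with 4 of 7 positive. Lamp1 had 282, 270, 283 and 259 CPM in number 18, against 239, 224, 193 and 215 CPM in number 4, and Npc1, Mcoln1 and Scarb2 had negative estimates.

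Macrophage markers moved with the title number as well. All 16 had positive estimates, 9 of them called, with a median log2 fold change of 1.46. Over all genes 2.98% were called higher and 1.67% lower, the shares to set beside the calls in each marker list. The macrophage sums were 133, 183, 239 and 170 CPM in number 18, against 51.0, 93.2, 87.5 and 80.7 CPM in number 4. The defining marker Adgre1 was at 0 in some library of the series. Of 11 yolk sac endoderm markers 10 were positive and 4 called, with sums of 140 to 4235 CPM in number 18, against 64.7 to 167 CPM in number 4. Knockout 3 had 4235 CPM and heterozygous 1 had 668 CPM, while wild-type 1 and 2 (161 and 140 CPM) lay inside the range of number 4. All 10 erythroid markers had positive estimates with 0 called (16784 to 73974 CPM, against 11868 to 46075 CPM), and 6 of 9 neuronal markers with 1 called (665 to 1079 CPM, against 366 to 941 CPM). Of 10 ATF4 targets 8 had negative estimates with 0 called (299 to 449 CPM, against 337 to 1154 CPM). Their part in the lysosomal values was not tested.

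**Figure D5:**
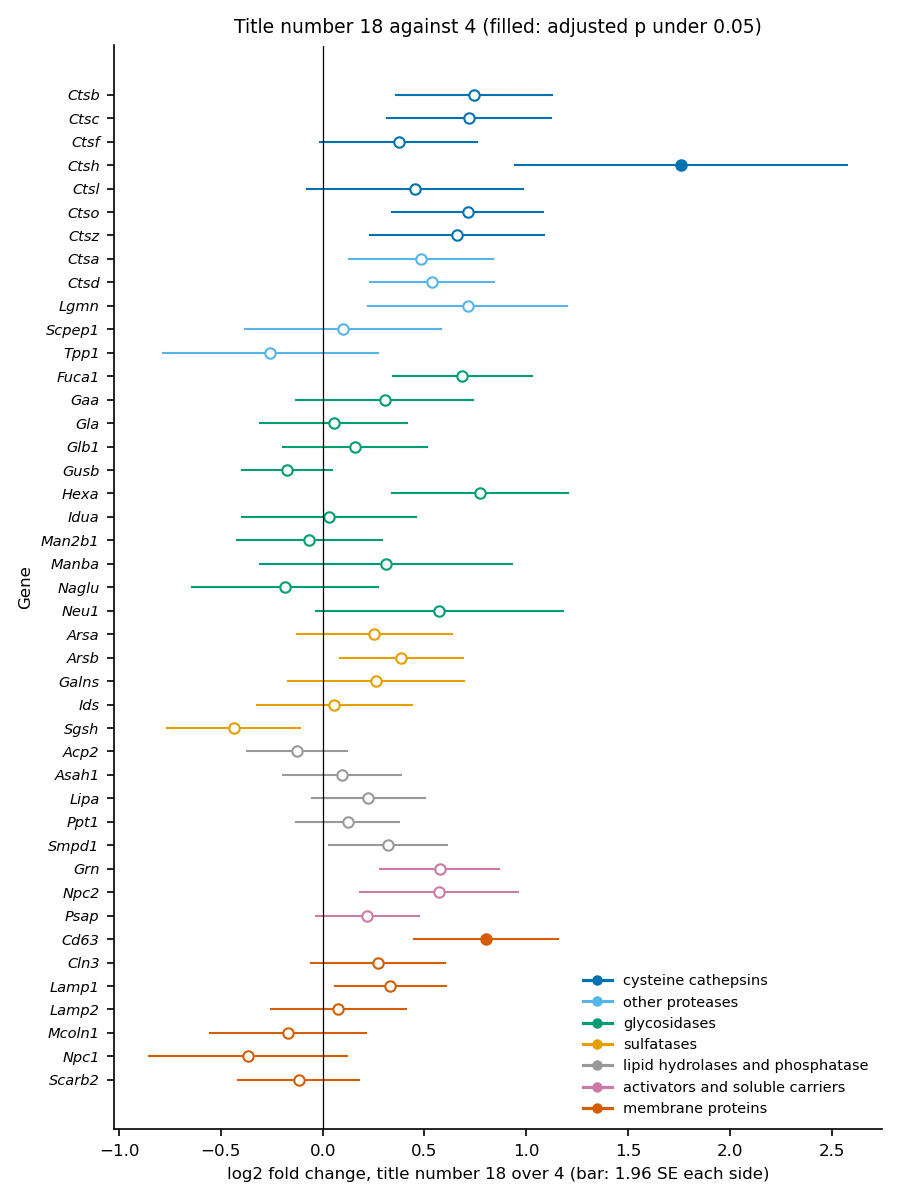
Log2 fold change of each of the 43 genes in embryos of title number 18 over title number 4 (n = 4 each, with genotype in the fit), with bars for the 95% interval from its SE, coloured by class. Filled points passed the adjusted threshold of 0.05 and are Cd63 (0.80) and Ctsh (1.76); all 7 cysteine cathepsins lie to the right of 0.

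The genes of the set varied between embryos to unequal degrees. The SD of log2 CPM over the 12 embryos had a median of 0.335, against 0.402 over all genes tested. It was 0.282 over 5967 genes within the middle 2 quartiles of the set's abundance (15.4 to 73.4 CPM). The value of 0.335 is over all 43 genes, those outside that band included. Ctsh varied most, with an SD of 1.02, and Neu1, the lysosomal sialidase, next, with an SD of 0.512. Neu1 had 9.61, 12.002, 25.6 and 11.2 CPM in knockout embryos, 15.5, 28.3, 11.2 and 12.5 CPM in heterozygous embryos, and 14.5, 13.3, 8.59 and 12.9 CPM in wild-type embryos, so its 2 highest values belonged to the same 2 libraries that stood apart. Ppt1, which removes palmitate from proteins, varied least, with an SD of 0.106. It had 40.6, 37.3, 42.0 and 38.2 CPM in knockout embryos, 42.0, 39.5, 38.2 and 43.2 CPM in heterozygous embryos, and 48.1, 38.5, 38.6 and 37.7 CPM in wild-type embryos. Acp2 had an SD of 0.107 and 43.5 to 55.5 CPM over the 12 embryos.

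Other lysosomal genes outside the set, and the genes that deliver or activate lysosomal enzymes, gave 0 calls by edgeR in each genotype comparison. In knockout against wild-type embryos 15 of 34 other lysosomal genes had positive estimates. At an unadjusted p under 0.05 there were 1 higher and 2 lower, against 4.25% and 4.08% of all genes. Naaa, an acid amidase of N-acylethanolamines, had 6.47, 8.77, 6.03 and 15.9 CPM in knockout embryos, 5.80, 6.87, 5.37 and 5.86 CPM in heterozygous embryos, and 4.56, 4.29, 5.09 and 5.77 CPM in wild-type embryos. The knockout values were all higher than the wild-type values, with a log2 fold change of 0.92 ± 0.28 (SE, edgeR adjusted p = 0.537). Of the 34 genes 1 lay wholly higher in this way, against 1.6% of all genes. Cd68, a macrophage membrane protein, had the smallest p of the list in knockout against heterozygous embryos, with a log2 fold change of 0.82 ± 0.32 (SE, edgeR adjusted p = 0.643). Tmem192, a lysosomal membrane protein, had the smallest p in heterozygous against wild-type embryos and was carried by 1 library. It had 103 CPM in the library labelled heterozygous 2 and 58.1 CPM in knockout 4, against 4.07 to 10.9 CPM in the other 10 embryos.

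Of the 8 delivery genes, Sumf2, a relative of the enzyme that activates sulfatases, had a log2 fold change of -0.43 ± 0.19 in knockout over wild-type embryos (SE, edgeR adjusted p = 0.598). Sumf1, that activating enzyme, stood at -0.30 ± 0.25 in heterozygous over wild-type embryos (SE, edgeR adjusted p = 1). Title number 18 over 4 gave 2 calls among the 34 other lysosomal genes, the cathepsins Ctss (log2 fold change 1.91 ± 0.24 SE, edgeR adjusted p = 0.00584) and Ctsk (1.955 ± 0.312 SE, edgeR adjusted p = 0.0134). Of all genes, 2.98% were called higher. Ctss had 4.96, 7.09, 10.2 and 6.16 CPM in number 18, against 0.945, 2.44, 2.01 and 2.45 CPM in number 4. Ctsk had 7.94, 10.5, 16.4 and 9.75 CPM in number 18, against 1.03, 5.13, 3.19 and 3.18 CPM in number 4. Both lay wholly higher in number 18. Of the 34 genes 8 lay wholly higher and 2 wholly lower, against 10.1% of all genes in each direction. Sort1, the sorting receptor sortilin, lay wholly lower, as 1 of the 8 delivery genes, with a log2 fold change of -0.61 ± 0.18 (SE, edgeR adjusted p = 0.0804).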

How the data were processed

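A single gene-level table was deposited. Its values, per the file headers, are unscaled estimated counts made with featureCounts 2.0.6 and the RefSeq annotation of GRCm39. Each mate counted singly, multi-mapping or overlapping reads added fractions, and strand was not used, so overlapping antisense genes share reads. DRAGEN and Subread are named without a role in the submitters' processing notes. Per the labels' protocols, 325 ng of RNA entered a stranded mRNA kit with spike-ins, and the table holds 0 spike-in rows. Of the 43 genes, 32 had a fractional count in some library.

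Counts were rounded, filtered with filterByExpr and scaled by TMM. The test was edgeR 4.0.16 (R 4.3.3), quasi-likelihood, robust, all 12 embryos, two-sided, Benjamini-Hochberg over 20771 genes, threshold 0.05. SE is the fold change over the square root of F, and 95% intervals use the normal quantile. They are therefore narrower than the F test implies, and can leave out 0 at an unadjusted p over 0.05. The title fit added genotype. CPM use TMM totals, log2 CPM a prior count of 2, and levels per length are RPKM, since mates were counted singly (the plan had written FPKM). P-values set a difference of means against the spread between embryos. The genotype fits left title number out and treated the embryos as independent. Checks on simulated data preceded use. A stage index, the mean z score of later-stage minus earlier-stage genes, served as a covariate in an alternative.

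Members, gene lists and tests were chosen with earlier results of these data known. By rule, the text names the 3 members of smallest p per comparison, those past the threshold, the most abundant per class, the 2 of largest and 2 of smallest SD, and for the other lists those past the threshold or of smallest p. Lgmn, Manba, Ctsb, Ctsc, Mcoln1, Lamp2, Scpep1, Ids, Arsb, Sgsh, Gusb, Grn, Npc2 and Npc1 were named after their values were seen, as were genes given by motif. Alternatives were DESeq2 1.42.0, other scalings and filters, covariates, the compared genotypes alone, each embryo left out, and, added after seeing the data, the library labelled heterozygous 2 and knockout 3 left out together.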

Additional observations from a re-analysis of the deposited data

Results flagged for a closer look

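In 17 of 129 groups of 4 embryos of 1 genotype, 1 embryo's CPM of a lysosomal gene lay further from the nearest other than Dixon's 95% critical value allows, and in 2 of 21 groups a class sum did. The nominal share is about 5% for independent groups. These groups are genes of the same embryos and are not independent. The share over all genes was not computed, so the counts are descriptions and not a result about lysosomal genes. Of these 19 results, 9 fell on knockout 3 and 7 on the library labelled heterozygous 2.

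Knockout 3 was high for Ctsb (353 CPM, against 130 to 161 CPM in knockout 1, 2 and 4), Ctsh (35.7, against 3.49 to 4.40 CPM), Ctsa (113, against 61.8 to 67.3 CPM), Lgmn (118, against 38.6 to 42.4 CPM), Neu1 (25.6, against 9.61 to 12.002 CPM), Manba (18.7, against 6.35 to 6.93 CPM) and Galns (13.3, against 7.75 to 8.62 CPM). Its sums were high for the cysteine cathepsins (259.97 RPKM, against 121 to 126 RPKM) and the other proteases (295 RPKM, against 162 to 177 RPKM).

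The library labelled heterozygous 2 was high for Ctsl (355 CPM, against 129 to 149 CPM in heterozygous 1, 3 and 4), Scpep1 (133, against 50.4 to 60.5 CPM), Idua (17.2, against 6.87 to 7.67 CPM), Lamp2 (202, against 112 to 124 CPM), Mcoln1 (34.3, against 17.9 to 18.04 CPM) and Cln3 (13.4, against 10.8 to 11.1 CPM), and low for Ids (15.5, against 28.8 to 30.6 CPM).

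Heterozygous 1 was high for Fuca1 (32.2 CPM, against 22.3 to 23.6 CPM). Wild-type 2 was high for Arsb (21.997 CPM, against 15.4 to 16.3 CPM), and wild-type 1 for Ppt1 (48.1 CPM, against 37.7 to 38.6 CPM).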

How the results depend on the processing

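The 43 genes gave 0 calls in the 3 genotype comparisons under all 66 alternatives. With title number included, their 86 alternative medians moved by less than the spread of their mean between embryos (0.25 log2 within genotype, 0.28 within title number). That spread is wider than the genotype medians of -0.02, -0.16 and 0.12, so staying within it does not show a stable direction. With 1 embryo left out these medians were -0.16 to 0.07, -0.33 to -0.01 and -0.01 to 0.18. Over all genes, knockout against wild-type gave 122 calls with DESeq2, 2 with title number as a factor and 19 with the library labelled heterozygous 2 and knockout 3 left out together, against 0. Knockout against heterozygous gave 74 and 33 calls with DESeq2 and without those 2 libraries, against 0, and heterozygous against wild-type 4 with DESeq2, against 0. Leaving out 1 embryo gave 0 to 1, 0 to 1 and 0 to 0 calls. Title number 18 against 4 gave 964 calls as reported, 2690 with DESeq2, 619 with library totals, 2185 with no filter, 321 with Xist, 1 with the stage index, 3930 without those 2 libraries and 87 to 1841 leaving out 1 embryo. Of the 43 genes it called 2 as reported, 11 with DESeq2, 1 with library totals, 9 with no filter, 0 with the stage index, 13 without those 2 libraries and 0 to 9 leaving out 1 embryo. The causes were not tested. The labels number no replicates. With title number as a factor, the only blocked fit made, the medians of the 43 were 0.01, -0.15 and 0.16 in the 3 genotype comparisons, and what the number marks is not stated.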
